A study of Mus musculus with 14 samples.

Results

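The transcripts of 10 genes were followed through white nodules of Eif3e-deficient mice: Fos, Fosb, Fosl2, Jun, Junb, Jund, Batf, Batf3, Nr4a1 and Egr1. They were taken by gene symbol from the 32285 genes counted in each library, and all 10 were found. The nodules, or for mouse 27 the tumor that was later transferred, came from 7 mice. These carried floxed Eif3e (Eif3e fl/fl), the Cre driver Cγ1-Cre and the reporter Rosa26-YFP LSL, and are called cKO. Cγ1-Cre is switched on in activated B cells, with transcription at the Ig γ1 constant segment, and deletes Eif3e, whose product eIF3e is part of the translation initiation complex eIF3. Each nodule was profiled by 1 library of single-cell RNA and 1 of V(D)J sequence, that is, of rearranged antigen receptors. The B cell receptor (BCR) was sequenced from a liver nodule of mouse 27 at 12 mo of age, a lung nodule of mouse 29 at 12 mo, a spleen nodule of mouse 31 at 13 mo, a thymus nodule of mouse 33 at 16 mo, and the lung and thymus of mouse 34 at 9 mo. The T cell receptor (TCR) was sequenced from the liver of mouse 30 at 14 mo and the spleen of mouse 32 at 12 mo. By the study's account the tumor of mouse 27 had been transferred into an immunodeficient Rag2-/- recipient, whose own cells were not separated from those of the donor. Nodules of control mice were not analysed here, so cells were compared within nodules or between clones. Neither the Cre nor the YFP transcript was counted.

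Fos, Fosb, Fosl2, Jun, Junb and Jund encode the FOS and JUN proteins, which pair through leucine zippers to form the transcription factor AP-1. BATF and BATF3 belong to the same basic leucine zipper family, pair with JUN proteins in place of FOS and bind DNA together with IRF4 or IRF8 in lymphocytes and dendritic cells. EGR1, a zinc finger protein, and NR4A1 (also called Nur77), an orphan nuclear receptor, are induced with Fos within minutes of antigen receptor or growth factor signaling, without new protein synthesis. The same immediate early genes rise in many tissues while these are cut up and digested into single cells.

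A clone cell was a cell that carried the commonest heavy or beta chain of its nodule, or the light or alpha chain found most often beside it. The BCR nodules held from 323 to 3974 such cells and the TCR nodules 2107 and 4868. Other cells were named from marker genes in clusters built without the 10 genes, and a name ending in "-like" stands for such a cluster. Bystander T-like cells were T-like cells of the BCR nodules, and in the TCR nodules cells with another called TCR, numbering 394 to 5118 per mouse. B clone cells carried B cell markers at a summed level of 1968 to 4039 CPM (UMIs of a gene per 1000000 UMIs of all genes in the summed cells) and T cell markers at 9.41 to 59.1 CPM. Bystander T-like cells carried T cell markers at 1169 to 2795 CPM. They also carried NK cell markers at 87.9 to 412 CPM and macrophage markers at 51.9 to 542 CPM, and no cluster was named as NK cells. Eif3e itself was detected in every clone, at 169 to 243 CPM in B clones and 142 to 146 CPM in T clones, against 116 to 183 CPM in bystander T-like cells. By the study's account, the B and CD4 T cells of the tumors lacked YFP and had normal levels of eIF3e protein. The study thus takes the tumor cells as eIF3e-sufficient, and the clones are not read here as cells that lost Eif3e. The libraries held 19264039 to 123456962 UMIs. Pairs of libraries shared at least 96 cell barcodes, and 569 of 75503 cells held 2 or more UMIs of both CD3 and B cell genes.

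B clone cells held more RNA molecules than most cells they were compared with. Their mean was 10201 to 15324 UMIs per cell, compared with 1362 to 4762 in bystander T-like cells, 2574 and 5692 in T clones and 4981 to 6158 in stromal-like (endothelial-like and fibroblast-like) cells, which did not overlap with them. Macrophage-like (4398 to 14151), neutrophil-like (2085 to 13909), erythroid-like (1665 to 18402) and dendritic-like cells (12538 and 13503) did overlap. B-like cells with another called receptor (3164 to 10558) also overlapped, whereas those without a called receptor (3228 to 8330) did not. A detected receptor was required of B clone cells but not of T-like cells in the BCR nodules. A gene can therefore be a smaller share of the RNA of a B clone and still be counted as often in each cell. Both scales are given below: the share of UMIs (CPM) and the UMIs per 100 cells. How far cell size, capture or the detection of the receptor set the UMIs per cell was not tested.

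The promoters of Fos, Fosb, Nr4a1 and Batf are shown because the first 3 belong to genes of the rapid response, whereas the transcript of Batf followed a different pattern below. The sequences are the 250 bases before the RefSeq start of each gene in build GRCm38.p6, in the direction of transcription, and 9 of the 10 genes matched that source. Capitals mark TGACG or its reverse complement CGTCA, the core of the cAMP response element, and TATAAA where present.
Fos (chr12:85473640-85473889, plus strand): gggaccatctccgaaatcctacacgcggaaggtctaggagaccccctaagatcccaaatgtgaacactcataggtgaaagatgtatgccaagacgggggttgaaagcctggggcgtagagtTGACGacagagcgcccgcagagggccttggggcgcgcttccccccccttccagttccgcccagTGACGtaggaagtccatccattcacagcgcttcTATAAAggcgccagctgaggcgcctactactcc
Fosb (chr7:19310046-19310295, minus strand): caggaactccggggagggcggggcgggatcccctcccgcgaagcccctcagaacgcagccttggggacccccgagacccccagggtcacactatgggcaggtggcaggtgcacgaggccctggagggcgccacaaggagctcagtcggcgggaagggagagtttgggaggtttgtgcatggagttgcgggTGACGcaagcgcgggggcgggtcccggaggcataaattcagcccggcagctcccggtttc
Nr4a1 (chr15:101266596-101266845, plus strand): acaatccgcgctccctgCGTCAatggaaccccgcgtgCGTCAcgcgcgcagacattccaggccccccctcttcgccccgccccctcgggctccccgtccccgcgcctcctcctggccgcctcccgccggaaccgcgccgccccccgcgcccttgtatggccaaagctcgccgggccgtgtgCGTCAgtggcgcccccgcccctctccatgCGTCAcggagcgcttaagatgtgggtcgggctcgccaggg
Batf (chr12:85686470-85686719, plus strand): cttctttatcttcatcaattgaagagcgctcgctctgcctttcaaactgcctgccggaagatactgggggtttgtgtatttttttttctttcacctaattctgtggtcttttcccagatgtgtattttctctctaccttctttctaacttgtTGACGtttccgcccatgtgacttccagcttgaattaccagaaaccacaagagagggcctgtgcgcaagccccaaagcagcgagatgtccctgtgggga
The Fos promoter held TGACG at 66 and 129 bases before the start and TATAAA at 33 bases. The Nr4a1 promoter held 4 copies of the core, and those of Fosb and Batf 1 each, at 60 and 98 bases. The core, on either strand, was present in 5 of the 9 promoters (the fifth was that of Junb) and in 17.8% of 32851 mouse promoters of the same length. The promoters of Jun, Jund, Fosl2 and Batf3, not shown, held no copy of it. The full element TGACGTCA and the AP-1 site TGACTCA were in none of the 9 and in 1.55% and 4.46% of all promoters, and GGGCGG, the GC box, was in 7 of the 9 and in 32.7% of all. A match describes letters in this window and does not show that a factor binds there.

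**Figure D1:**
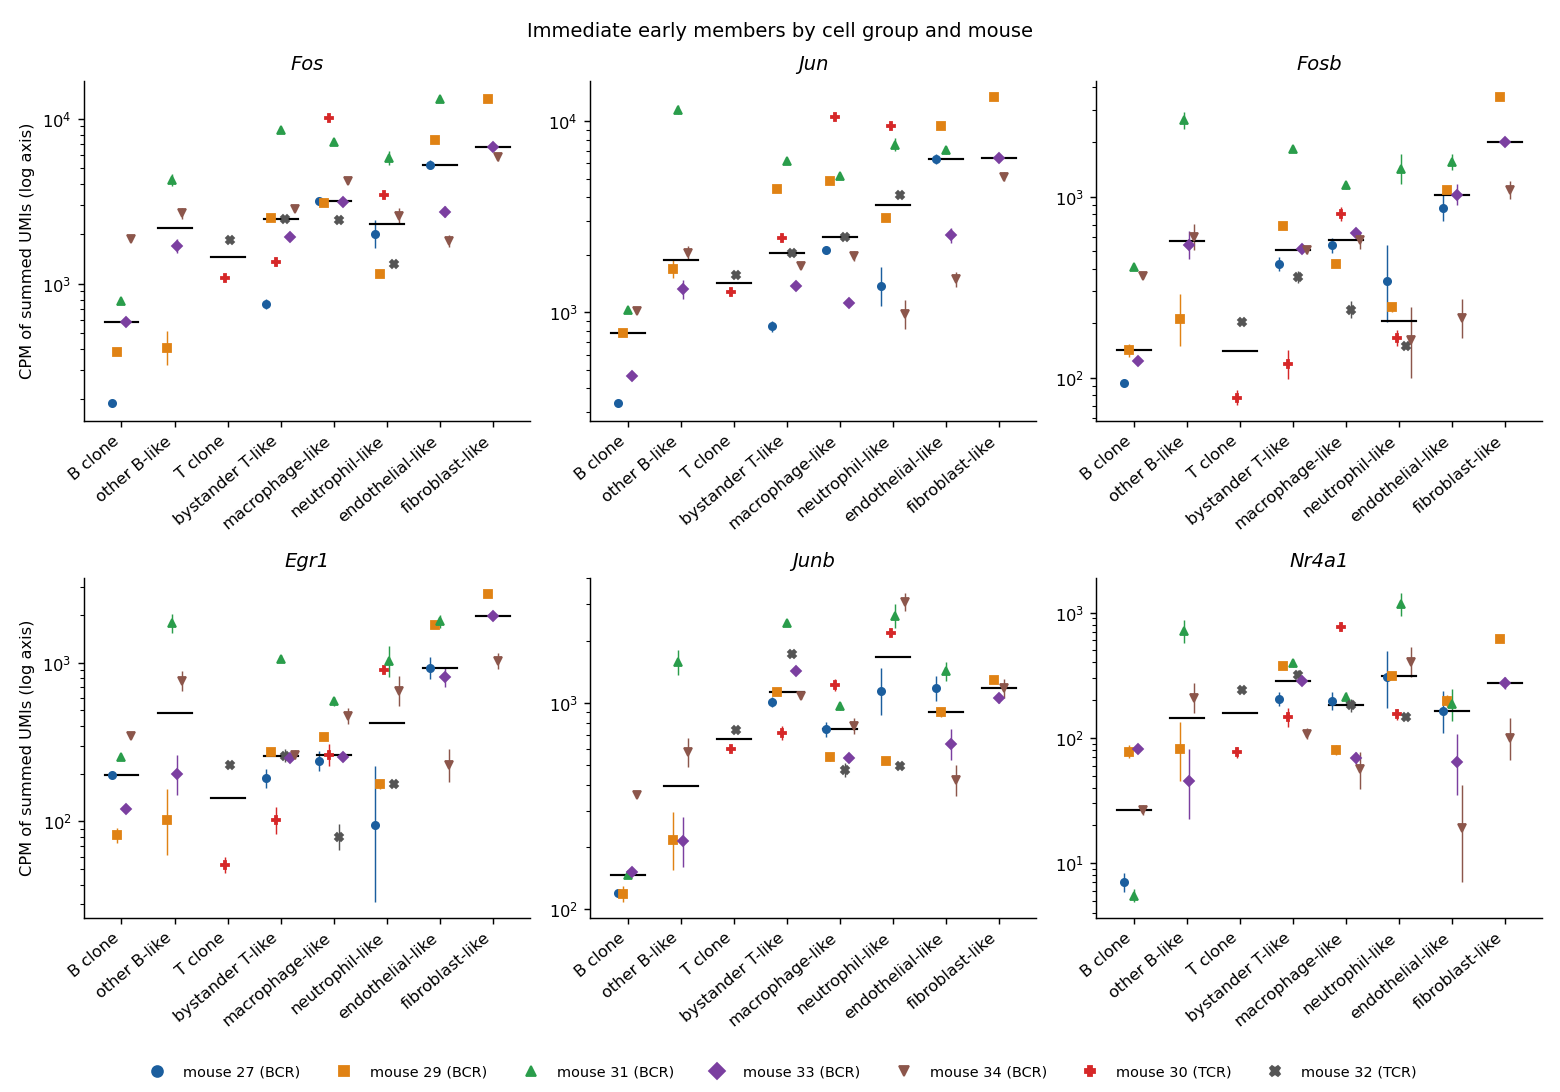
CPM of 6 immediate early genes (vertical log axes) in 8 cell groups (horizontal axis), 1 point per mouse with its exact Poisson 95% interval and a bar at the median. B clones lie lowest or near lowest for Fos, Jun and Junb, endothelial-like and fibroblast-like cells lie highest for Fos and Egr1, and mouse 31 stands above the other mice in several groups.

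Fos, the founding partner of JUN in AP-1, was at 190, 389, 790, 587 and 1876 CPM in the B clones of mice 27, 29, 31, 33 and 34. In bystander T-like cells of the same mice it was at 755, 2502, 8534, 1916 and 2855 CPM. Every B clone was below the T-like cells of its own nodule, by 1.52 to 10.8 times, although the groups overlapped because mouse 34 was high and mouse 27 low. The fitted log2 fold change was -2.04 ± 0.41 (SE, n = 5 mice, edgeR quasi-likelihood test with mouse as block, Benjamini-Hochberg adjusted p = 0.0111), and its adjusted p was 0.0538 without the block. Counted per 100 cells, the B clones held 193, 469, 965, 900 and 2305 Fos UMIs and the T-like cells 157, 341, 1649, 912 and 1087, so that 3 of 5 B clones were higher. Scaled to cell number in place of UMIs, the same test gave 0.21 ± 0.43 (adjusted p = 0.645). The lower Fos of B clones was thus a lower share of their RNA, with no difference detected per cell.

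Jun, the main partner of FOS, behaved in the same way. B clones held 334, 784, 1023, 466 and 1017 CPM and bystander T-like cells 843, 4396, 6151, 1372 and 1751 CPM in mice 27, 29, 31, 33 and 34 (log2 fold change -1.70 ± 0.31, edgeR adjusted p = 0.00751). Per 100 cells all 5 B clones were higher, with 341, 947, 1250, 714 and 1249 UMIs against 176, 599, 1188, 653 and 667, and the test on that scale gave 0.55 ± 0.41 (adjusted p = 0.217). Fosb, which encodes a FOS paralog, was at 93.2 to 406 CPM in B clones and 424 to 1841 CPM in bystander T-like cells, 2 ranges that did not overlap (-1.80 ± 0.32, adjusted p = 0.00658). Per cell its value was above that of the T-like cells in 4 of 5 mice (0.46 ± 0.42, adjusted p = 0.301). Jund, whose product is present in resting cells and can restrain growth, was at 322 to 1088 CPM against 1071 to 2878 CPM (-1.27 ± 0.29, adjusted p = 0.0183) and passed the test in the opposite direction per cell (1.00 ± 0.43, adjusted p = 0.0355).

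Junb and Fosl2 had negative log2 fold changes in B clones on both scales, although Junb passed the test on 1 of them only. Junb, a JUN protein that partners BATF in T cells, was at 120, 119, 146, 152 and 357 CPM in the B clones and 1010, 1128, 2435, 1431 and 1079 CPM in bystander T-like cells. These ranges lay far apart, and the log2 fold change was -3.01 ± 0.36 (edgeR adjusted p = 0.00144). Per 100 cells, the B clones held 122, 143, 179, 233 and 439 Junb UMIs against 210, 154, 470, 681 and 411, lower in 4 of 5 mice (-0.75 ± 0.43, adjusted p = 0.106). Fosl2, which encodes FRA2, was nearly absent from the B clones of mouse 27 (0.660 CPM) and mouse 31 (1.63 CPM), and reached 18.5 CPM in mouse 29. The bystander T-like cells held 102, 224, 72.3, 80.0 and 15.5 CPM in mice 27, 29, 31, 33 and 34, and the B clones were below them in 5 of 5 mice on both scales (-4.14 ± 0.76 per UMI, adjusted p = 0.00804; -1.93 ± 0.59 per cell, adjusted p = 0.00440).

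Nr4a1, a reporter gene of antigen receptor signaling, was at 7.04, 77.7, 5.50, 82.0 and 26.5 CPM in the B clones and at 204, 374, 396, 285 and 108 CPM in bystander T-like cells, without overlap (-3.26 ± 0.77, edgeR adjusted p = 0.0209). Per cell it was lower in 4 of 5 mice (-1.07 ± 0.57, adjusted p = 0.0844). Without mouse 27 the per-UMI difference was -2.75 (adjusted p = 0.06). Egr1 did not pass the test as a share of UMIs (82 to 343 CPM in B clones, 187 to 1060 CPM in T-like cells, -0.84 ± 0.38, adjusted p = 0.138), but per 100 cells it was higher in all 5 B clones, at 199, 98.5, 312, 183 and 422 UMIs against 39.0, 37.3, 205, 120 and 100 (1.41 ± 0.44, adjusted p = 0.00483). Per cell Egr1 thus passed and Nr4a1 did not, with opposite signs, although both are induced by receptor signaling, and the difference between the genes was not tested.

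In this comparison 7 of the 10 genes were lower in B clones per UMI and none higher, beside 15.6% lower and 28.7% in either direction among 12432 genes tested. Per cell, 4 of the 10 passed, of which Fosl2 was lower and Jund, Batf and Egr1 higher. On that scale 81.0% of all genes were higher in B clones, 5.18% lower and 86.2% changed in either direction, and the median log2 fold change was 2.28 over all genes and 0.34 over the 10. Without mouse 27, 31 or 33 Jund no longer passed per UMI (adjusted p of 0.053 to 0.0601). B and T cells also differ in lineage, and that difference and the clonal state cannot be told apart in this comparison.

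**Figure D2:**
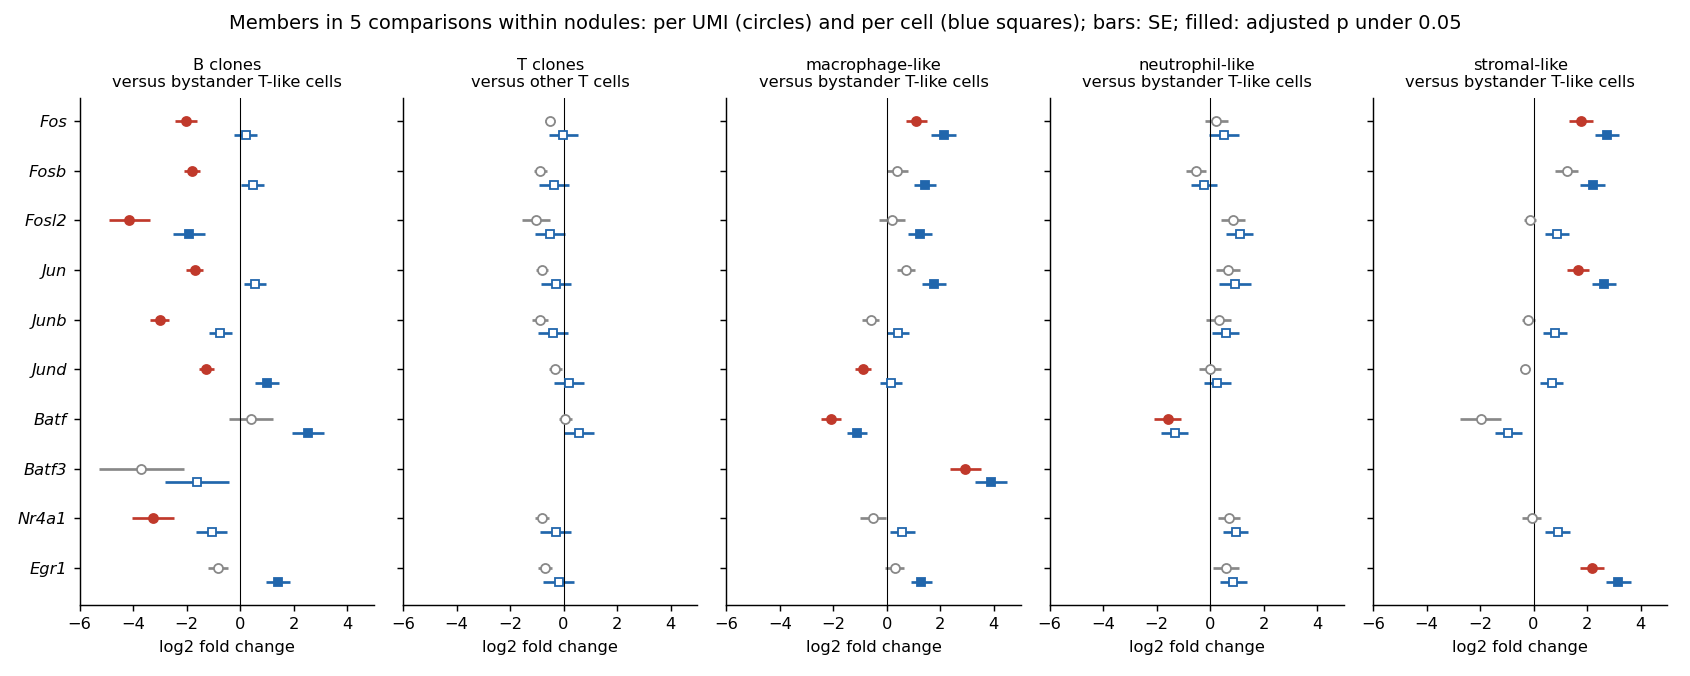
Log2 fold change (horizontal axes) of each gene in 5 comparisons within nodules, per UMI (circles) and per cell (blue squares), with SE bars and filled symbols for an adjusted p under 0.05. In B clones Fos, Jun and Jund lie below 0 per UMI and above 0 per cell, Fosl2 lies below 0 on both, and Egr1 in stromal-like cells lies above 0 on both.

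Batf departed from the other genes. It was at 218, 17.2, 928, 294 and 1068 CPM in the B clones of mice 27, 29, 31, 33 and 34, a range of 62.1 times. Bystander T-like cells of all 7 mice lay between 181 and 302 CPM. Mouse 31 and mouse 34 were above every T-like value, mouse 29 was below all of them, and the fitted difference was 0.39 ± 0.83 (edgeR adjusted p = 0.752). B-like cells without a called receptor followed their clone, with 225, 19.4, 912, 334 and 915 CPM in the same order of mice. Per 100 cells, the B clones held 223, 20.7, 1134, 450 and 1312 Batf UMIs and the T-like cells 51.8, 24.7, 58.4, 108 and 77.1, higher in 4 of 5 mice (2.52 ± 0.60, adjusted p = 5.14e-04). When 1000 UMIs were drawn from each cell, the share of B clone cells with a Batf UMI ran from 0.929% to 62.4% between mice. The 2 BATF partner genes were higher in B clones than in bystander T-like cells per UMI, beside 13.1% of all genes. Irf4, a factor of activated and plasma cells, was higher by 1.56 ± 0.22 on the log2 scale (edgeR adjusted p = 0.00270). Irf8, a factor of B and dendritic cells, was higher by 2.96 ± 0.23 (edgeR adjusted p = 3.77e-04). Against B-like cells outside the clone neither passed, with a median log2 fold change of -0.17 (0.14 over all genes).

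**Figure D3:**
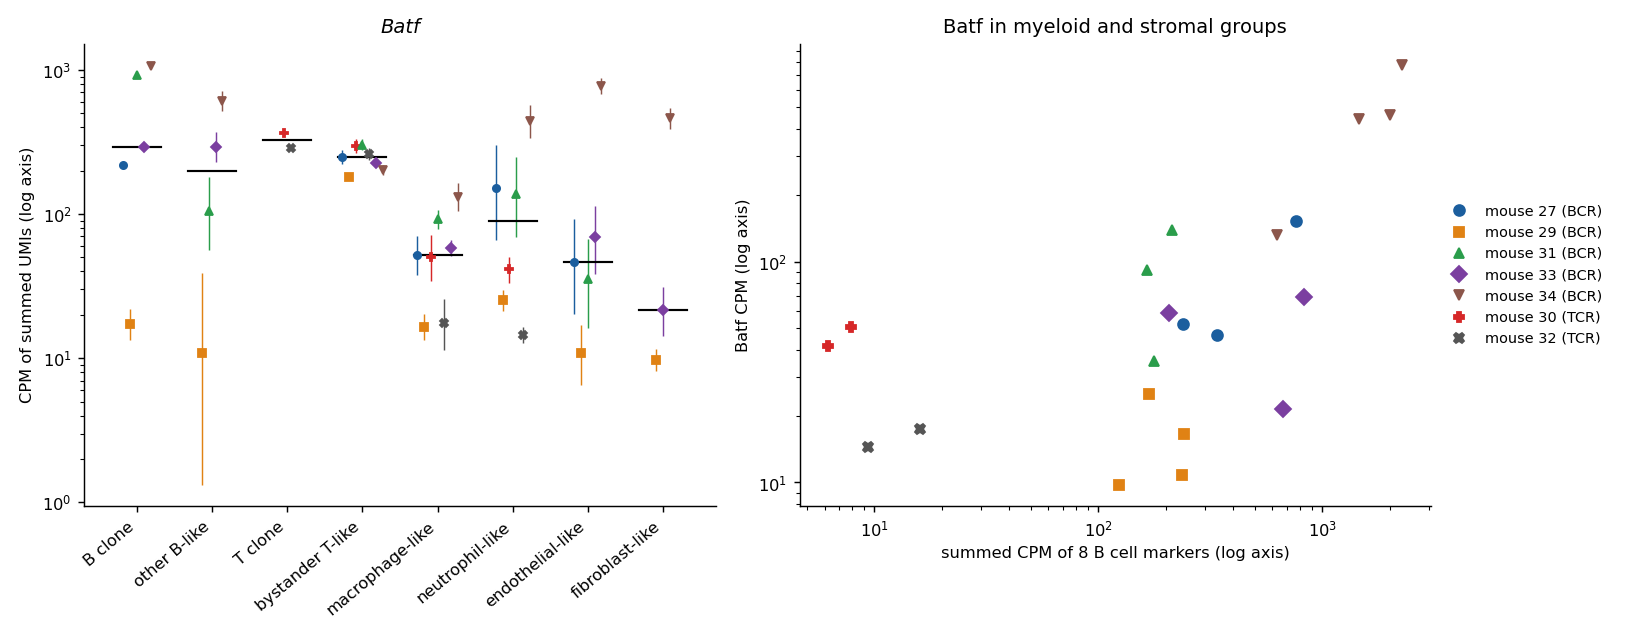
Left, Batf CPM (log axis) by cell group and mouse with exact Poisson 95% intervals and medians; right, Batf CPM of myeloid and stromal groups against the summed CPM of 8 B cell markers in the same cells (both log axes). In mouse 34 the endothelial-like, fibroblast-like and neutrophil-like cells reach 779, 462 and 443 CPM and also carry the highest B marker sums.

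Clone cells were next set against receptor-bearing B-like cells outside the clone, of which 4 mice had 24 to 39 each. Batf was higher in the clone in 4 of 4 mice, at 17.2 against 10.8 CPM in mouse 29, 928 against 105 in mouse 31, 294 against 293 in mouse 33 and 1068 against 612 in mouse 34. The values of mouse 33 hardly differed, nor did those of mouse 29, whose other cells held 2 Batf UMIs. The log2 fold change was 1.13 ± 0.50 (edgeR adjusted p = 0.476) per UMI, and 0.40 (adjusted p = 0.758) without mouse 31. Per cell it was 1.98 (adjusted p = 0.0396), where 10.3% of all genes were higher and 10.6% changed in either direction. Jun was lower in the clone in 4 of 4 mice per UMI, at 466 to 1023 CPM against 1321 to 11474 CPM (-1.83 ± 0.34), but its adjusted p was 0.140. Of the 9 genes tested, 0 passed with edgeR, beside 0.0217% of 9212 genes (952 genes had an unadjusted p under 0.05). DESeq2 passed 5 of them as lower in the clone, Fos, Fosb, Jun, Jund and Egr1, among 125 genes in either direction (1.36% of those tested, 1.07% lower). Per cell none of these 5 passed (log2 fold changes of -0.79 to -0.15). The other B-like cells held plasma cell markers at 1070 to 15607 CPM, compared with 274 to 1810 CPM in the clones, and their part in these values was not tested.

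T clones were next compared with the other T cells of their nodules. Fos was at 1079 CPM in the T clone of mouse 30 and 1846 in mouse 32, against 1347 and 2471 CPM in other T cells. Jun was at 1275 and 1576 against 2442 and 2046 CPM, Fosb at 77.4 and 202 against 119 and 359, and Nr4a1 at 76.3 and 239 against 146 and 318, all at a lower value in the clone of both mice, as were Junb (596 and 738 against 713 and 1733) and Egr1 (53.5 and 227 against 102 and 260). Fosl2 was at 61.0 against 53.9 CPM in mouse 30 and 47.3 against 171 in mouse 32, and Jund at 628 against 558 and 1018 against 1428. Batf was at 368 and 287 CPM in the clones and 298 and 261 in the others. With 2 pairs, 0 of 9 genes passed (edgeR adjusted p of 0.250 to 0.968), beside 0.335% of 11644 genes, of which 1141 had an unadjusted p under 0.05, and DESeq2 also passed 0 of them, beside 1.91% of all genes. Per cell the log2 differences lay between -0.49 and 0.59, 0 of the 9 passed, and 2.74% of all genes did. The T clones carried neutrophil markers at a summed level of 1070 and 2788 CPM, against 213 and 326 CPM in the other T cells, with none of the 9 at 0. Erythroid markers summed to 1.11 CPM in one T clone and 745 CPM in the other, against at most 63.3 CPM in bystander T-like cells. In clone cells that lay in T-like clusters, the log2 differences of the 9 genes were -0.92 (Fosl2) to 0.27 (Batf), compared with -1.03 and 0.07 over all clone cells, and 0 passed.

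T clones and B clones came from different mice and sites, so that lineage, site and library cannot be told apart. Junb was at 596 and 738 CPM in the T clones and at most 357 CPM in the B clones, with a log2 fold change of 1.63 ± 0.44 and an edgeR adjusted p of 0.0652. Fosl2 (61.0 and 47.3 CPM against 0.660 to 18.5 CPM) and Jun (1275 and 1576 against 334 to 1023 CPM) did not overlap either, without passing the test (2.74 ± 1.06, adjusted p = 0.150; 0.70 ± 0.46, adjusted p = 0.364). In all, 0 of 10 genes passed with edgeR, beside 6.74% of 15191 genes, and 0 per cell, beside 29.9%. Per cell Jun pointed the other way (-0.56) and Junb kept its sign (0.36, adjusted p = 0.638).

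Batf3, a factor required by cross-presenting dendritic cells, was next followed in macrophage-like cells, which were present in all 7 nodules. Its level in these cells was 26.8, 4.85, 20.5, 35.6, 9.10, 44.4 and 23.9 CPM in mice 27, 29, 30, 31, 32, 33 and 34, above the T-like cells of each nodule, which had 0 to 13.4 CPM (2.93 ± 0.58, edgeR adjusted p = 0.00188; 3.89 ± 0.59 per cell, adjusted p = 6.73e-06). Dendritic-like cells, of which mouse 31 had 20 and mouse 33 had 21, held 91.7 CPM (23 UMIs) and 60.0 CPM (17 UMIs), the highest levels of any cell group. Dendritic cell markers summed to 32.9 to 199 CPM in macrophage-like and 730 to 798 CPM in dendritic-like cells. The dendritic-like cells also carried macrophage markers at 734 to 1328 CPM and B cell markers at 219 to 279 CPM. The part of dendritic cells in the Batf3 of macrophage-like cells was not tested. In mouse 29 fibroblast-like cells (7.92 CPM) exceeded macrophage-like cells, while in mice 33 and 34 (11.9 and 3.45 CPM) they did not. In B clones Batf3 stayed at or under 2.59 CPM, and the clones of mice 31 and 34 had no UMI, which allows at most 0.0618 and 0.172 CPM (3 counts, counting error only). Batf ran the other way: macrophage-like cells held 16.5 to 132 CPM and did not overlap with bystander T-like cells at 181 to 302 CPM (-2.08 ± 0.38, adjusted p = 0.00110; -1.10 ± 0.37 per cell, adjusted p = 0.0150).

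Fos was at 3167, 3076, 10058, 7254, 2439, 3136 and 4165 CPM in macrophage-like cells of mice 27, 29, 30, 31, 32, 33 and 34. It exceeded the T-like cells in 5 of 7 mice per UMI (1.09 ± 0.39, edgeR adjusted p = 0.0420) and in 7 of 7 per cell (2.13 ± 0.46, adjusted p = 5.14e-04). Per UMI the call was lost without mouse 27, 29, 33 or 34 (adjusted p of 0.0583 to 0.117), with library totals in place of TMM factors (0.0827) and without the mouse block (0.112). Jund was lower per UMI (-0.88 ± 0.31, adjusted p = 0.0372), lost its call without any mouse but mouse 30, and gave 0.16 per cell (adjusted p = 0.750). In all, 2 of the 10 genes were higher and 2 lower per UMI, beside 20.4% higher, 23.5% lower and 43.9% in either direction among 9298 genes. Per cell, 6 were higher and 1 lower, with Fosb, Fosl2, Jun and Egr1 beside Fos and Batf3, and 47.9% of all genes were higher, 5.60% lower and 53.5% changed. Mouse 30 had the highest Jun (10440 CPM), Nr4a1 (774) and Fosl2 (374) of the macrophage-like groups, and its macrophage markers summed to 1434 CPM, compared with 8686 to 25634 CPM in the other mice.

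In neutrophil-like cells of 6 nodules, Batf was the 1 of 9 tested genes that differed from bystander T-like cells, at 14.5 to 443 CPM against 181 to 302 CPM (-1.60 ± 0.52, edgeR adjusted p = 0.0229), beside 15.0% of 9234 genes lower and 28.4% in either direction. Batf was lower in 5 of 6 mice, the exception being mouse 34. The call was lost without mouse 29, 30 or 32 (adjusted p of 0.0776 to 0.0837), without the mouse block (0.277) and per cell (-1.33, adjusted p = 0.0576), where 0 of the 9 genes and 16.7% of all genes passed. The neutrophil-like sums of mice 27, 31 and 34 rested on 24, 38 and 41 cells, with 8, 11 and 58 Batf UMIs. That of mouse 34 also held B cell markers at 1460 CPM, whose part in its Batf was not tested. Junb was at 1144, 525, 2182, 2638, 493 and 3073 CPM in mice 27, 29, 30, 31, 32 and 34, which spread too widely to differ from the T-like cells (0.33 ± 0.47, adjusted p = 0.648).

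Stromal-like cells of the 5 BCR nodules were richer in Fos, Jun and Egr1 than bystander T-like cells on both scales. Fos was at 6949, 12527, 12431, 6175 and 3750 CPM in mice 27, 29, 31, 33 and 34, above the T-like cells of every nodule (1.76 ± 0.45, edgeR adjusted p = 0.0167; 2.74 ± 0.45 per cell, adjusted p = 1.02e-08). Egr1 was at 963, 2590, 1724, 1786 and 608 CPM against 187, 274, 1060, 252 and 264 CPM (2.20 ± 0.45, adjusted p = 0.00554; 3.17 ± 0.48 per cell, adjusted p = 3.14e-10). Jun was at 6521, 12919, 6837, 5827 and 3235 CPM, also higher in 5 of 5 mice (1.66 ± 0.40, adjusted p = 0.0120). These 3 of 9 genes passed per UMI, beside 20.8% higher and 35.2% in either direction among 9759 genes. Fosb (633 to 3253 CPM, 1.24 ± 0.43) had an adjusted p of 0.0554 and passed per cell (2.21 ± 0.46, adjusted p = 9.41e-06), where 46.3% of all genes were higher and 51.4% changed. Fos lost its per-UMI call without mouse 29 (1.47, adjusted p = 0.0577), and Fos and Jun lost it without the mouse block (adjusted p of 0.0704 and 0.071). Junb, Jund, Fosl2 and Nr4a1 had log2 differences of -0.31 to -0.07 per UMI.

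Batf in stromal-like cells was at 43.6, 9.83, 96.2, 28.5 and 626 CPM, with mouse 34 far above the rest (-1.98 ± 0.77, adjusted p = 0.0793; -2.75 and adjusted p = 0.00206 without mouse 34). B cell markers in endothelial-like cells summed to 2282 CPM in mouse 34 and to 178 to 832 CPM in the other mice, with none of the 8 at 0, and to 632 CPM against 165 to 242 CPM in macrophage-like cells of the BCR nodules. The B clone of mouse 34 held these markers at 4039 CPM and Batf at 1068 CPM. The part of B cell RNA in the Batf of other cells was not tested.

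The order of cell groups by median CPM differed between genes. For Fos it was led by fibroblast-like (6771 CPM), epithelial-like (5761), endothelial-like (5271) and dendritic-like cells (4260). Mast or basophil-like (3780.5), macrophage-like (3167), bystander T-like (2471) and neutrophil-like cells (2296) came next. The lower part ran from T-like cells without a called receptor (2200) over other B-like cells (2180), T clones (1462), B-like cells without a called receptor (851), B clones (587), B-like cells of the TCR nodules (311) and erythroid-like cells (292). Neighbors such as macrophage-like and neutrophil-like cells overlapped over mice. The groups did not come from the same mice, since bystander T-like and macrophage-like medians rest on 7 mice, fibroblast-like and epithelial-like on 3 and dendritic-like on 2, so the order also holds differences between mice. Mast or basophil-like cells, 24 in mouse 30 and 22 in mouse 32, had the highest median of Jun (18789 and 5971 CPM), Junb (4749 and 1425), Jund (2998 and 2493) and Nr4a1 (742 and 421). For Batf the order was headed by B-like cells without a called receptor (334 CPM), T clones (327), T-like cells without a called receptor (297) and B clones (294), which did not differ beyond their spread, and epithelial-like cells were lowest (12.9).

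Genes known to rise during tissue dissociation were examined next, as 19 other immediate early genes and 11 heat shock genes. In B clones against bystander T-like cells, 14 of the 19 were lower per UMI and none higher, with a median log2 fold change of -1.96 (0.05 over all genes, of which 15.6% were lower and 13.1% higher). They included Nfkbia, the inhibitor of NF-κB (-1.79 ± 0.18, edgeR adjusted p = 7.81e-04), Socs3, a brake on cytokine signaling (-4.52 ± 0.60, adjusted p = 0.00214), Ier2 (-2.03 ± 0.30, adjusted p = 0.00331) and Ier3 (-4.56 ± 0.76, adjusted p = 0.00535). Of the heat shock genes 4 of 11 were lower, led by the HSP70 gene Hspa1b (-6.19 ± 0.63, adjusted p = 7.85e-04). Per cell, 6 of the 19 were higher and 3 lower (median 0.28). Socs3 (-2.40), Ier3 (-2.46) and Hspa1b (-3.81) were still lower in B clones on that scale, whereas Nfkbia (0.45) and Ier2 (0.20) did not pass, and 7 of the 11 heat shock genes were higher and 2 lower. Over all genes 81.0% were higher per cell and 5.18% lower. Macrophage-like cells parted the lists, with 9 of 19 immediate early genes higher and none lower, but 8 of 11 heat shock genes lower and none higher, beside 20.4% of all genes higher and 23.5% lower. In neutrophil-like cells 11 of 19 were higher and 1 lower, among them Cebpd and Cebpb, transcription factors of myeloid cells, higher by 5.46 ± 0.58 and 4.11 ± 0.50, and all 11 heat shock genes were lower, beside 13.3% of all genes higher and 15.0% lower. In stromal-like cells 9 of 19 were higher and 1, Btg1, was lower, and 6 of 11 heat shock genes were lower and 1, Hspb1, was higher, beside 20.8% of all genes higher and 14.4% lower. Per cell the heat shock counts became 0 higher and 2 lower in macrophage-like cells, 0 and 5 in neutrophil-like cells and 2 and 0 in stromal-like cells, while immediate early genes remained higher in number, at 15, 11 and 18 of 19 with 0, 1 and 0 lower. Over all genes the shares per cell were 47.9% higher and 5.60% lower in macrophage-like, 10.4% and 6.28% in neutrophil-like, and 46.3% and 5.12% in stromal-like cells.

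**Figure D4:**
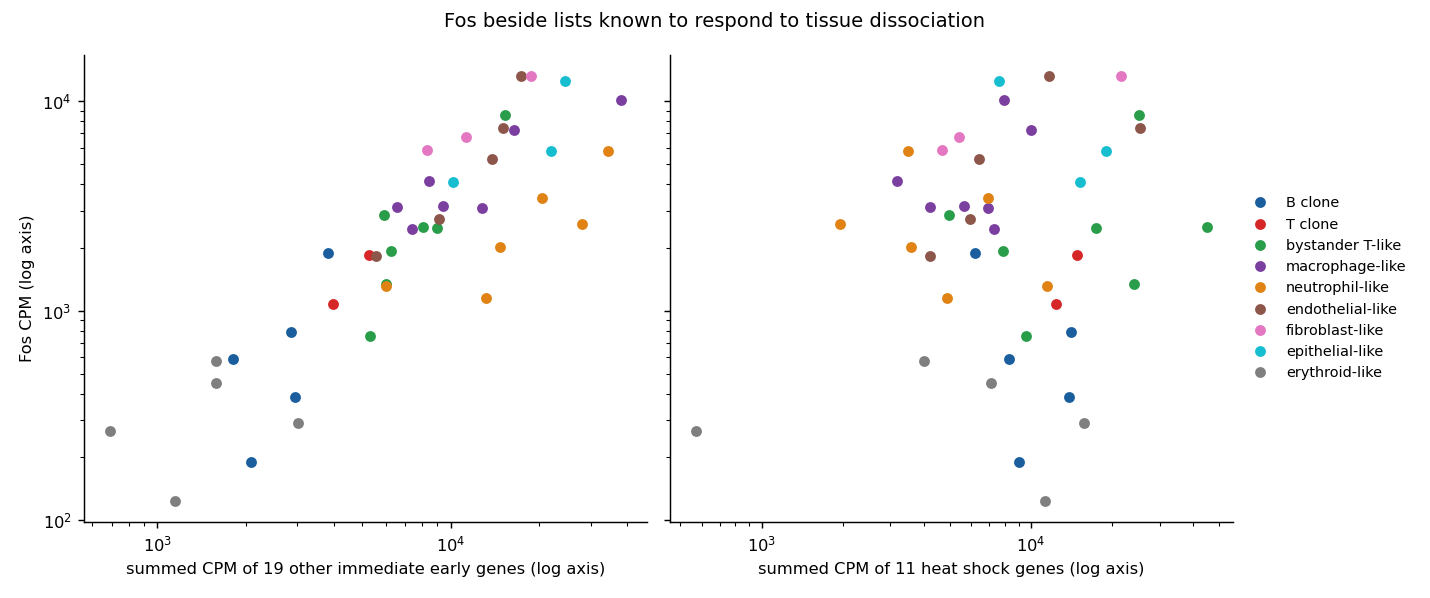
Fos CPM (vertical log axis) against the summed CPM of 19 other immediate early genes (left) and of 11 heat shock genes (right), 1 point per cell group and mouse, 43 in all. Fos rises along the first list (r = 0.871) and spreads over the range of the second (r = 0.139).

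Over the 43 sums of 9 cell groups, log2 Fos CPM had a Pearson r of 0.871 with the other immediate early genes and 0.139 with the heat shock genes. The r with the immediate early list was 0.879 for Junb, 0.816 for Jun, 0.757 for Egr1, 0.733 for Nr4a1, 0.731 for Fosb, 0.718 for Fosl2 and Jund, 0.208 for Batf3 and -0.208 for Batf. These values describe points that share mice and libraries. Over 60 sums, the genes most like Fos among 9459 were Zfp36 (r = 0.860), which encodes an mRNA decay factor, Gm26887 (0.849), Dusp1 (0.823), a phosphatase of MAP kinases, Maff (0.819) and Klf6 (0.811), and those most like Batf were Gng3 (0.784), Gm47418 (0.770), Lta (0.763), which encodes lymphotoxin alpha, Zc3h12d (0.758) and Slamf6 (0.749). Within cells thinned to 1000 UMIs, those with a Fos UMI held a Jun UMI more often than those without in 34 of 34 sums, with a median difference of 27.2 percentage points, whereas for Batf the direction held in 19 of 34 (median 0.397 points). Dissociation, signaling in the tissue and library effects were not separated here, since each nodule gave 1 RNA library and fixed or undigested tissue was not analysed here.

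Related genes were set beside the same shares of all genes, 15.6% lower and 13.1% higher in B clones against bystander T-like cells. Of 6 other NR4A and EGR genes, 3 were lower in B clones than in bystander T-like cells per UMI and none higher: Nr4a2 (-5.03 ± 0.82, edgeR adjusted p = 0.00500), Nr4a3 (-4.53 ± 0.81, adjusted p = 0.00704), orphan receptors related to NR4A1, and the EGR corepressor gene Nab1 (-2.22 ± 0.29, adjusted p = 0.00209). Of 14 other basic leucine zipper genes 4 were lower and none higher, with Maf (-6.30 ± 0.61, adjusted p = 6.43e-04) and Crem (-3.37 ± 0.47, adjusted p = 0.00273) leading, and both were higher in T clones than in B clones (6.70 ± 0.74, adjusted p = 0.00752, and 3.38 ± 0.51, adjusted p = 0.0145), where 4.69% of all genes were higher. Of 13 SRF and MAP kinase genes upstream of Fos, 2 were lower, the phosphatase genes Dusp5 (-2.39 ± 0.39, adjusted p = 0.00521) and Dusp6 (-0.65 ± 0.19, adjusted p = 0.0434), a share close to that of all genes. In macrophage-like cells, where 20.4% of all genes were higher and 23.5% lower, 7 of 12 tested basic leucine zipper genes were higher and 3 lower, among them Atf3 (3.86 ± 0.37, adjusted p = 9.66e-06), a factor of the stress response. Stromal-like cells had 8 of 13 higher and 2 lower (20.8% and 14.4% of all genes), including Atf3 (3.65 ± 0.53, adjusted p = 9.20e-04) and Maff (1.90 ± 0.29, adjusted p = 0.00132). In neutrophil-like cells Fosl1, which encodes FRA1, was higher by 5.15 ± 0.44 (adjusted p = 2.11e-09), and 7 of 12 were higher and 3 lower (13.3% and 15.0% of all genes). Per cell, Nr4a2 (-2.83), Nr4a3 (-2.33), Maf (-4.09) and Crem (-1.11) were still lower in B clones, Nab1 (0.03) and Dusp5 (-0.20) no longer passed, and Dusp6 was higher (1.58).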

How the data were processed

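For each of 7 RNA libraries the authors deposited UMI counts of genes by cells, without normalization. The processing notes name the builds GRCm 38 and mm 10, and the aligner is not given in the sources used here. The labels name a 5′ kit for the V(D)J libraries and the methods a 3′ kit for RNA, so the transcript end counted was not settled. Receptor contigs, also deposited by the authors, come from SeekSoulTools; their UMI counts were not used.

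Cells with at least 201 UMIs, at least 101 genes and at most 10% mitochondrial UMIs were kept (75503 of 77442). Clusters were made in scanpy 1.11.5 without the 10 genes and the lists, and named from at least 3 markers. No doublet caller was run. Of the T clone cells of mouse 32, 307 lay in clusters of another class, and 16 to 70 cells in each other clone.

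Counts were summed per mouse and cell group with at least 20 cells, and tested with the quasi-likelihood test of edgeR 4.0.16 (R 4.3.3, TMM, filterByExpr, Benjamini-Hochberg adjustment over all genes tested, threshold 0.05), with the mouse as a block in comparisons within nodules. Same-numbered samples come from the same animal, except that the tumor of mouse 27 may also hold cells of its Rag2-/- recipient. The macrophage-like, neutrophil-like and stromal-like comparisons used mouse 27 as a pair, although donor and recipient cells were not separated. Paired sums of the same number deviated from their group means with correlations of 0.033 to 0.529 over all comparisons within nodules. The second scale, with the number of cells as library size, and a fit on clone cells in clusters of their own class were chosen after seeing the data. Other alternatives were DESeq2 1.42.0, library totals, no low-count filter, no block, leaving out each mouse, and other cell names. Each mouse number gave 1 RNA library. With the mouse as a block, p-values measure how differences within a nodule vary over mice. Between T and B clones, and without the block, they measure the spread between mice. Intervals and floors cover counting error only.

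The members and lists were chosen with earlier results of these data known. Named genes are the 10 members, at most 4 genes per list and direction with the smallest adjusted p, and the 5 genes with the highest Pearson r of log2(CPM + 10) to Fos and to Batf among genes with at least 100 UMIs in all and 50 CPM in 1 sum. Not every gene that meets this rule is reported here. Simulated data had the means of the B clones and bystander T-like cells, with 100 genes changed 2-fold and 100 changed 4-fold among 12177 tested. The test recovered 13% of the 2-fold and 67% of the 4-fold changes. Between T and B clones, with 14693 genes tested, it recovered 1% and 5%. Changed genes had a mean count of at least 10, and counts were drawn with the spread typical of their level. Recovery of genes that vary more, such as Batf, or with fewer counts, such as Batf3, was not measured.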

Additional observations from a re-analysis of the deposited data

Results flagged for a closer look

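A level was picked out where 1 mouse lay far from the others of its cell group by Dixon's test on CPM. For normally distributed values, chance alone does this in about 1 of 20 groups. The groups shared mice, and whether CPM met that condition was not tested. Of 69 groups examined, 17 were picked out, 10 of them in mouse 31. In bystander T-like cells of mouse 31, Fos was at 8534 CPM (next highest 2855), Fosb at 1841 (688), Jund at 2878 (1436) and Egr1 at 1060 (274). The other B-like cells of mouse 31, 39 in number, held Fosb at 2634 CPM (next 600) and Jun at 11474 (2044), its neutrophil-like cells held Fosb at 1426 (343) and Nr4a1 at 1161 (405), and its erythroid-like cells held Jun at 2587 (830) and Jund at 1023 (326). The B clone of mouse 31 was not picked out for any of these genes. In mouse 31 the 19 other immediate early genes summed to 15304 CPM in bystander T-like cells and to at most 8969 CPM in the other mice.

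In mouse 34 the B clone held Junb at 357 CPM (next 152), and Batf was at 443 CPM in neutrophil-like (next 152) and 779 CPM in endothelial-like cells (next 68.9), where B cell markers summed to 1460 and 2282 CPM. Batf3 was at 2.59 CPM in the B clone of mouse 33 (43 UMIs) and 0.124 CPM in erythroid-like cells of mouse 32 (8 UMIs). The other 4 mice had no Batf3 UMI in 25 to 76 erythroid-like cells, which allows up to 13.3 to 44.4 CPM, so mouse 32 was not shown to stand apart there. Nr4a1 was at 774 CPM in macrophage-like cells of mouse 30 (next 210) and 104 CPM in erythroid-like cells of mouse 33 (next 31.6).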

How the results depend on the processing

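Each of 931 values of the 10 genes and of the counts was recomputed under the alternatives: 819 kept their direction and their side of the threshold, 39 newly passed, 28 no longer passed and 45 changed sign. All 60 median levels by cell group moved by less than 1 SD between mice when cells were named by their own marker UMIs. The cause of the changes below was not tested. With 2 pairs, T clones against other T cells had the smallest design, and small groups of cells (24 to 39 other B-like cells) and low counts of Batf3 and Fosl2 limited the precision.

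Scaling to the number of cells was chosen after seeing the data. The genes called over all genes went from 3567 to 10718 in B clones against bystander T-like cells, from 2 to 978 against other B-like cells, from 39 to 319 in T clones against other T cells, from 1024 to 4537 in T against B clones and from 2618 to 1544 in neutrophil-like cells. The number of the 10 genes called went from 7 to 4 in B clones against T-like cells, from 0 to 1 against other B-like cells, from 4 to 7 in macrophage-like and from 1 to 0 in neutrophil-like cells. In macrophage-like cells the genes called over all genes went from 4079 to 4978. The median of all genes was then shifted by -1.38 to 2.28 on the log2 scale. Signs turned in B clones against T-like cells for Fos (0.21), Fosb (0.46), Jun (0.55), Jund (1.00) and Egr1 (1.41), and against other B-like cells for Fosl2 (0.13). They turned for Jund in T clones against other T cells (0.21), and in T against B clones for Fos (-0.54), Jun (-0.56), Jund (-1.08) and Batf3 (-0.35). In macrophage-like cells Junb (0.43), Jund (0.16) and Nr4a1 (0.58) turned, in neutrophil-like cells Jund (0.27), and in stromal-like cells Fosl2 (0.87), Junb (0.81), Jund (0.69) and Nr4a1 (0.90).

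With DESeq2 the counts over all genes were 125 in B clones against other B-like cells, 222 in T clones against other T cells and 3038 in T against B clones. It called 5 of the genes in the first of these, 1 in the last (Junb) and 5 in stromal-like cells (Fos, Fosb, Jun, Egr1 and, lower, Batf). In stromal-like cells DESeq2 called 3824 of 9759 genes in all. Without the low-count filter the counts were 115 and 2 (Fosb and Jun) in B clones against other B-like cells, 702 and 2 (Jun and Junb) in T clones against other T cells, 5168 in neutrophil-like cells, and 6143 and 5 in stromal-like cells. Library totals in place of TMM left 4 genes in T clones against other T cells. In T against B clones they called 1 of the 10 (Junb), beside 1220 of 15191 genes. They turned Fosl2 in macrophage-like (-0.04) and Fos in neutrophil-like cells (-0.01). They also moved the share of calls that were higher from 69.5% to 83.9% in T against B clones, from 46.5% to 32.6% in macrophage-like and from 46.9% to 30.1% in neutrophil-like cells.

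Cells named by marker UMIs gave 15 genes in B clones against other B-like cells and 4 in T clones against other T cells. In stromal-like cells they gave 5 of the 10, beside 3577 of 9318 genes. Signs then turned for Jund in neutrophil-like cells (0.12) and for Fosl2 (0.19), Junb (0.10) and Nr4a1 (0.18) in stromal-like cells. The largest clonotype as the clone gave 11 and 0 genes in these B and T comparisons. Clone cells in clusters of their own class, also chosen after seeing the data, gave 5 and 0, and 1873 with 1 of the 10 (Junb) in T against B clones. For T clones against other T cells, 24 genes were left without mixed cells and 0 without cells under 1000 UMIs, where Jund turned in neutrophil-like cells (0.13).

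Without the replicate block, that is, without pairing by mouse, no gene passed in B clones against other B-like cells (0) or T clones against other T cells (0). Of the 10 genes 0 passed in neutrophil-like cells, beside 2632 of 9234 genes, and 1, Egr1, in stromal-like cells, beside 3121 of 9759. Calls were lost for Fos in B clones against T-like cells (-2.05, edgeR adjusted p = 0.0538), Fos in macrophage-like cells (1.00, adjusted p = 0.112), Batf in neutrophil-like cells (-0.90, adjusted p = 0.277), and Fos (1.54, adjusted p = 0.0704) and Jun (1.51, adjusted p = 0.071) in stromal-like cells. Nr4a1 changed sign in macrophage-like (0.02) and stromal-like cells (0.22). The block changed no other call of the 10 genes, and T and B clones share no mouse.

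Leaving out 1 mouse at a time gave 2350 to 3045 genes and 5 to 7 of the 10 in B clones against bystander T-like cells, 9 to 19 genes and 0 to 1 against other B-like cells, and 179 to 1472 and 0 to 1 in T against B clones. The lowest of these came without mouse 30 and mouse 32 (179 and 273), followed by mice 27 (385), 34 (386) and 31 (648). The ranges were 3307 to 4258 and 2 to 6 in macrophage-like, 1898 to 3015 and 0 to 2 in neutrophil-like, and 2684 to 3613 and 2 to 4 in stromal-like cells. Batf in B clones against T-like cells ran from -0.20 (without mouse 34; -0.05 without mouse 31) to 1.11 (without mouse 29), and against other B-like cells it fell from 1.13 to 0.40 without mouse 31. In T against B clones, Jund ran from -0.37 (without mouse 32; -0.01 and -0.04 without mice 29 and 33) to 0.43, and Batf3 from -6.75 (without mouse 32, when the T clone left had no Batf3 UMI, so that the value is no bound) to 1.55. Fosl2 in macrophage-like cells ran from -0.20 (without mouse 30) to 0.53. In neutrophil-like cells Fos ran from -0.08 and Junb from -0.02 (both without mouse 30) to 0.51 and 0.79, and Jund from -0.34 to 0.25 (without mouse 32; 0.21 and 0.15 without mice 27 and 29). Nr4a1 in stromal-like cells ran from -0.38 to 0.17 (without mouse 31; 0.09 without mouse 34). With 1 pair of T clone and other T cells left, and thus no test, Batf was -0.05 without mouse 30 and 0.18 without mouse 32, Fosl2 was -2.03 and 0.06, and Jund was -0.67 and 0.05.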
